A study of Mus musculus and Rattus norvegicus with 2 samples.

Results

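Small RNA sequences that the authors had assigned to a GenBank entry labelled mitochondrial RNA were examined in sperm of the mouse and the rat. The label was on 9476 of 89179 listed mouse sequences and on 1693 of 137388 listed rat sequences. Together these were 11169 of 226567 sequences. Only the label chose them, and no read count, length or end was used in addition. The label itself rests on a match to an entry with up to 2 mismatches. Positions and mismatches were therefore not independent of the choice. For example, an exact mt-Rnr2 sequence of 43 nt with 3250 mouse reads carried an rRNA label and was left out.

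Purified sperm of the cauda epididymis, where ripe sperm are stored, were used per the labels, which do not say how many animals were pooled. There was 1 library from C57BL/6 mice of 2 months and 1 from Sprague Dawley rats of 450 g described as young adults, both untreated as far as the labels say. RNA of 18 to 45 nt was sequenced, and the deposited value of each sequence is its number of reads. A single library stood for each species, which left no replicate error and no test, and intervals below are exact Clopper-Pearson 95% intervals that cover counting error only.

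The mouse library listed 691381 reads and the rat library 2102735. As a check of the cell label, the germ cell miRNAs miR-34c-5p, miR-34b-5p and miR-449a summed to 297 mouse reads and 6180 rat reads, with all 3 found in both. The stromal miRNAs miR-143-3p and miR-145 summed to 2407 and 828 reads, 5 epithelial miRNAs to 234 and 131, and 5 blood cell miRNAs to 42 and 3, with miR-150 at 0 in the mouse and miR-451 and miR-486 at 0 in the rat. In the mouse library the stromal sum therefore exceeded that of the germ cell miRNAs. How far RNA of other cells entered the mitochondrial reads was not tested.

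Mitochondria keep a small circular genome of their own. It encodes both ribosomal RNAs of the mitochondrial ribosome, mt-Rnr1 for the small subunit (12S) and mt-Rnr2 for the large subunit (16S), together with tRNAs and a few proteins of the respiratory chain. The strands are transcribed as long precursors, in which tRNAs flank most other genes and are cut out at their ends, which also frees the rRNAs. In sperm, mitochondria are wound around the midpiece of the tail.

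Most mouse reads with the label, 39654 of 44926 counted with edits, were pieces of the 16S rRNA, and some of their ends were used far more than others. The most used first base in the mouse was position 1841 of the mitochondrial genome (GRCm38, plus strand), which lies inside mt-Rnr2 (chrM:1094-2675). The sequences below share that first base and differ only at the 3′ end. Capitals mark the bases beyond the shortest form, and the 4 are the most abundant mouse sequences of the label.
chrM:1841-1874, 1116 reads: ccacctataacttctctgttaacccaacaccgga
chrM:1841-1875, 1384 reads: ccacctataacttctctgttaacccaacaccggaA
chrM:1841-1880, 1557 reads: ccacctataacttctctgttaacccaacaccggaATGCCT
chrM:1841-1883, 1056 reads: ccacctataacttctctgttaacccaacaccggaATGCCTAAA

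A different stretch of mt-Rnr2 had the opposite arrangement, with 1 last base and several first bases. These 4 sequences all end at position 1539, and capitals mark the bases before the shortest form.
chrM:1502-1539, 100 reads: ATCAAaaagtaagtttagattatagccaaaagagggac
chrM:1505-1539, 225 reads: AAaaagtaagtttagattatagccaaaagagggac
chrM:1506-1539, 239 reads: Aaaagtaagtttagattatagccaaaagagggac
chrM:1507-1539, 227 reads: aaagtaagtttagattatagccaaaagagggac

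The most used rat start was the counterpart of the first base of mouse mt-Rnr2. Capitals mark the 1 base that differs between the species in the first 15 bases, T6C from mouse to rat, counted from the 5′ end.
mouse, chrM:1094-1114, 548 reads: actaaTcctagccctagccct
mouse, chrM:1094-1128, 418 reads: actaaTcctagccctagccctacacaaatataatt
rat, 544 reads: actaaCcctagccctacaacc
rat, 575 reads: actaaCcctagccctacaaccaacc
rat, 718 reads: actaaCcctagccctacaaccaaccaaca

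Many mouse reads matched the gene up to a base near their 3′ end and then differed from it. Capitals mark the bases beyond the last that matches, and the read numbers set these sequences beside the same sequence without them. They are also the 5 most abundant mouse sequences that matched the minus strand of their entry. For all but the last, the exact sequence of the same length had more reads. It had 3250 at 1094-1136, under an rRNA label, 540 at 1847-1889, 344 at 1841-1876 and 202 at 1841-1884. Few exact reads ended near the end of the last, as given further on.
chrM:1094-1135, 205 reads against 19: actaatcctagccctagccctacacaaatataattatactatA
chrM:1847-1888, 196 reads against 30: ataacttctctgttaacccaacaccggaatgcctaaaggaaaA
chrM:1841-1875, 133 reads against 1384: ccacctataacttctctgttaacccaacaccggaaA
chrM:1841-1883, 111 reads against 1056: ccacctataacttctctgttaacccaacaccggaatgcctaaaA
chrM:2233-2254, 111 reads against 0: taagtttgaaatttcggttgggAC

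The mitochondrial label held 44926 mouse reads, 6.50% of those listed (interval 6.44 to 6.56). In the rat it held 10489 reads, 0.499% (0.489 to 0.508). The mouse share was 13.03 times that of the rat, a difference that depended on the labels, as described further on. Most sequences were rare: 6096 mouse and 1153 rat sequences were read 1 time, and 490 and 122 were read at least 10 times. The 10 most abundant sequences held 19.4% of the labelled reads for the mouse and 37.4% for the rat, and the 100 most abundant held 47.7% and 73.0%. A few GenBank entries took most of them, since the 5 entries with most reads held 73.5% of labelled mouse reads and 93.6% of labelled rat reads. The count was blank for 321 of the mouse sequences, which add nothing to these sums.

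The mouse reads were long. Their lengths ran from 18 to 71 nt with a median of 36 nt and a mode of 43 nt, at 7165 reads or 15.9%, followed by 35 nt with 6006 reads or 13.4%. Reads of 40 to 45 nt made up 32.3% (interval 31.9 to 32.7), against 5.95% of the mouse reads under all other labels, whose median was 31 nt. Reads of 46 nt and more, beyond the fraction named in the labels, made up 4.17%. The rat reads were shorter, with a median and a mode of 30 nt, at 1224 reads or 11.7%, and 36 nt as the next most common length with 1062 reads. Of the rat reads, 39.9% had 26 to 33 nt and 5.48% had 40 to 45 nt (5.05 to 5.93), against 0.930% of 40 to 45 nt under the other rat labels. In both libraries the label therefore held a larger share of reads of 40 to 45 nt than the rest of the library.

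**Figure D1:**
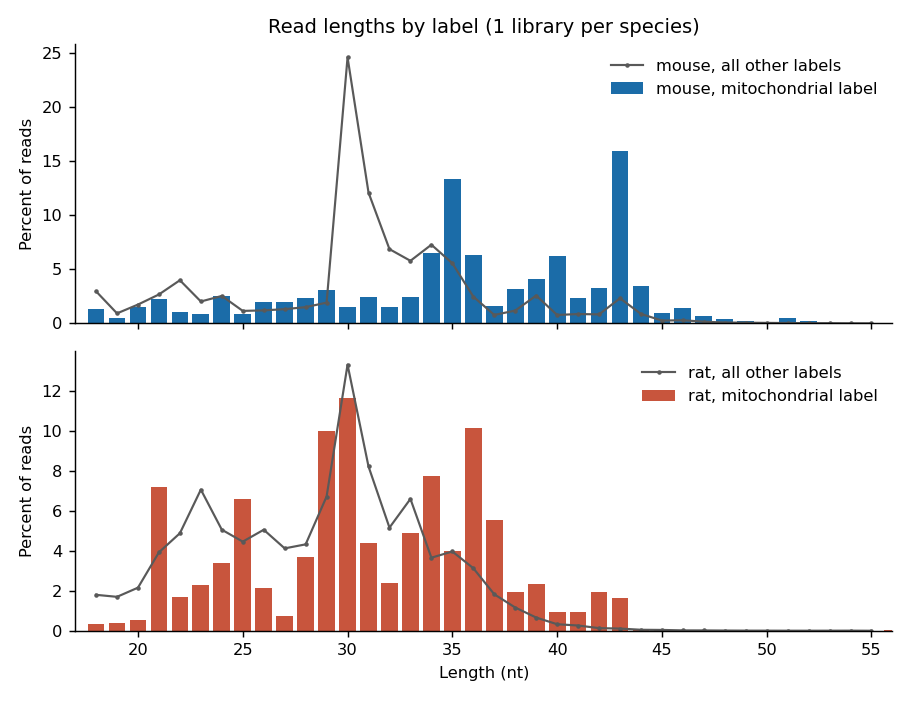
Share of reads (percent, y axis) at each length (nt, x axis, shown to 56 nt) in the mouse (top) and rat (bottom) library, as bars for the mitochondrial label and as a grey line for all other labels. The mouse bars peak at 43 nt (15.9%) and 35 nt (13.4%). The mouse grey line peaks at 30 nt, with a smaller local rise at 43 nt (2.32%). The rat bars peak at 30 nt (11.7%) and 36 nt (10.1%).

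The mouse peak at 43 nt was spread over many places. Reads of 43 nt that matched the mitochondrial genes exactly numbered 5284 and had 339 different first bases, while those of 42 nt numbered 1102 with 136 first bases and those of 44 nt 1028 with 120. Of 93 first bases with at least 50 reads each, 43 nt was the most common length at 10 and 35 nt at 10, more than for any other length. The 43 nt peak was therefore not made by 1 abundant fragment. It was also not particular to the label. Mouse reads under other labels numbered 15021 at 43 nt, against 5404 at 42 nt and 5667 at 44 nt. Of the 15021, 3250 were 1 mt-Rnr2 sequence under an rRNA label. The read length of the instrument run and the trimming are not stated in the labels, and their part in this peak was not tested.

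Placement on the genome checked the label. Of the mouse reads, 34865 (77.6%) matched a mitochondrial gene exactly, 8014 (17.8%) matched once edits up to 15% of the read length were allowed, and 2047 (4.56%) could not be placed. Both rRNA genes together took 42745 mouse reads, 95.1% of all with the label. For the rat only the mouse genes could be used, on which 4733 reads (45.1%) were placed within the same limit, and 5756 were not. Of those 5756 rat reads, 4105 (71.3%) began with the 15 bases shown above for the rat mt-Rnr2 start and then diverged from the mouse sequence. Placed by the first 15 bases with at most 1 edit, 7113 rat reads (67.8% of all with the label) began within mt-Rnr2.

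The large subunit rRNA led in both species. Among exactly placed mouse reads, mt-Rnr2 held 32108, or 92.1% (interval 91.8 to 92.4), and mt-Rnr1 (chrM:70-1024) held 2688, or 7.71% (7.43 to 7.99). Per kilobase of gene, mt-Rnr2 had 20296 reads and mt-Rnr1 2815, a ratio of 7.21. Among placed rat reads, mt-Rnr2 held 3497, or 73.9% (72.6 to 75.1), and mt-Rnr1 628, or 13.3% (12.3 to 14.3). This rat share leaves out the 4105 reads with the rat mt-Rnr2 start that could not be placed. Placed by the first 15 bases, mt-Rnr2 held 92.5% in the mouse library and 93.1% in that of the rat, so mt-Rnr2 led in both libraries under either placement, while which library had the larger share depended on the placement. In the rat the first 15 bases placed 7638 of 10489 labelled reads. They left out, among others, 327 reads with the main start of the tRNA-His gene mt-Th, at 2 edits. Also left out were 457 reads of the second most used rat start, at 3 edits.

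The other mitochondrial genes were almost absent from the mouse label. Of 22 tRNA genes, 2 had exact mouse reads: mt-Tr (tRNA-Arg) with 11 and mt-Ts2 (a tRNA-Ser) with 1, and the other 20 had 0 exact matches. With edits, 2 of these 20 had labelled reads, mt-Tg (tRNA-Gly) with 13 and mt-Tp (tRNA-Pro) with 8. Of 13 protein-coding genes, 7 had reads, 55 in all, led by mt-Co2 (a subunit of cytochrome c oxidase) with 25, mt-Cytb (cytochrome b of complex III) with 13 and mt-Atp6 (a subunit of ATP synthase) with 9. Mouse reads from tRNA genes carried other labels, such as 1557 reads of mt-Th (tRNA-His) and 571 of mt-Tq (tRNA-Gln), of which 0 had the mitochondrial label. In the rat, 7 tRNA genes had reads with the label, 587 in all, led by mt-Th with 330, mt-Tq with 192, mt-Tr with 31 and mt-Tk (tRNA-Lys) with 11, while a further 35199 rat reads of mt-Tq carried an mRNA label.

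The rat mt-Th reads had a particular 5′ end. Of the 330 reads in 22 sequences, 329 (99.7%) differed from their entry at the first base, T1G, counted from the 5′ end of the read. As background, histidine tRNAs are known for an extra guanosine at their 5′ end. The most abundant form had 68 reads, with the differing base in capitals.
rat mt-Th: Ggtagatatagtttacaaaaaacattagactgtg
A single 24 nt sequence, a match without mismatch to the minus strand of its rat entry, made up 184 of the 192 labelled rat mt-Tq reads. It was the most abundant minus-strand sequence of the rat label, ahead of 4 pieces of mt-Rnr1 with 8, 6, 4 and 4 reads, and mt-Tq lies on the minus strand of the mitochondrial genome.
rat mt-Tq: taggatagggtgtattggtagcac

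Within mt-Rnr2 the mouse reads gathered in a few stretches. The most covered ran from 1839 to 1939, bases 746 to 846 of the gene, and held 16759 exact reads in 858 sequences, or 48.1% of all exactly placed reads (interval 47.5 to 48.6). A stretch at 2332-2385 held 6640 reads (19.04%), the first bases of the gene at 1094-1136 held 1718 (4.93%), 1504-1539 held 1309 (3.75%), 2416-2469 held 1129 (3.24%) and 2056-2096 held 872 (2.50%). These 6 had most reads of the stretches marked in this gene of 1582 bases. As the stretches follow the coverage of these same reads, their shares are descriptive only. Of the rat reads placed over their whole length, 2513 or 53.1% (51.7 to 54.5) lay in the stretch at 1839-1939 and 283 in 2332-2385. That placement dropped nearly all rat reads of the 5′ end of the gene, and by the first 15 bases 4116 of 7113 rat reads in mt-Rnr2 (57.9%) began at its first base.

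First bases were used very unevenly. In the mouse 1194 different first bases were seen, and the 10 most used held 48.3% of the exactly placed reads. Position 1841 led with 6452 reads (18.5%, interval 18.1 to 18.9), followed by 1846 with 2324 (6.67%), 2347 with 1353 (3.88%), 1094 with 1293 (3.71%) and 1845 with 1085 (3.11%). The 5′ end at 1094, the first base of mt-Rnr2, was sharp, since only 8 reads began within 2 nt of it, while 3840 began within 2 nt of 1845. The small subunit gene showed its own first base as well, with 278 of 2688 reads (10.3%) beginning at position 70, the start of mt-Rnr1, followed by 157 at 782 and 100 at 741.

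Last bases were as uneven as first bases. In the mouse 1124 last bases were seen, the 10 most used holding 46.4% of the reads. Position 1880 led with 3739 reads (10.7%, interval 10.4 to 11.1), then 2385 with 2053 (5.89%), 2381 with 1898 (5.44%), 1875 with 1768 (5.07%) and 1874 with 1529 (4.39%). Position 1539, which is shown above with its ladder of first bases, held 1268 reads with only 8 more within 2 nt. The last bases of mt-Rnr1 were more spread, and the most used, 807, held 149 reads or 5.54% of that gene.

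**Figure D2:**
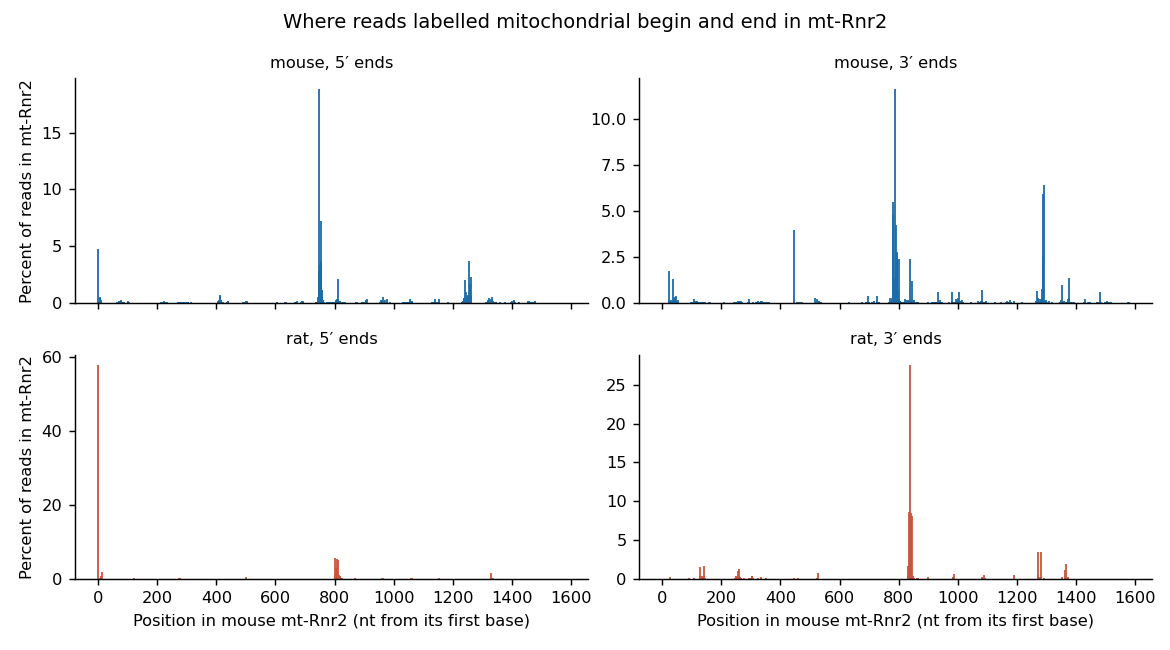
Share of reads in mt-Rnr2 (percent, y axes of different height) that begin (left) or end (right) at each position of mouse mt-Rnr2 (nt from its first base, x axis), for mouse (top) and rat (bottom) reads with the label. First bases are placed by the first 15 bases with at most 1 edit, and last bases by the whole read, exactly in the mouse and with edits in the rat. The mouse 5′ ends peak at base 748 (18.8%) and the rat 5′ ends at base 1 (57.9%).

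Each leading first base was found with many last bases. The start at 1841 was followed by 40 different sequences of 18 to 67 nt, among which the 4 shown above held 1557, 1384, 1116 and 1056 of the 6452 reads. The last base at 1880 was reached from 30 different sequences of 18 to 57 nt. Likewise the start at 2347 was followed by ends at 2381 with 725 reads and 2385 with 436, and the start at 1904 by ends at 1932 with 351 and 1939 with 257. A second group of starts from 1845 to 1848 shared its ends with the first in part: 765 reads ran from 1846 to 1880, 602 from 1846 to 1888 and 540 from 1847 to 1889.

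**Figure D3:**
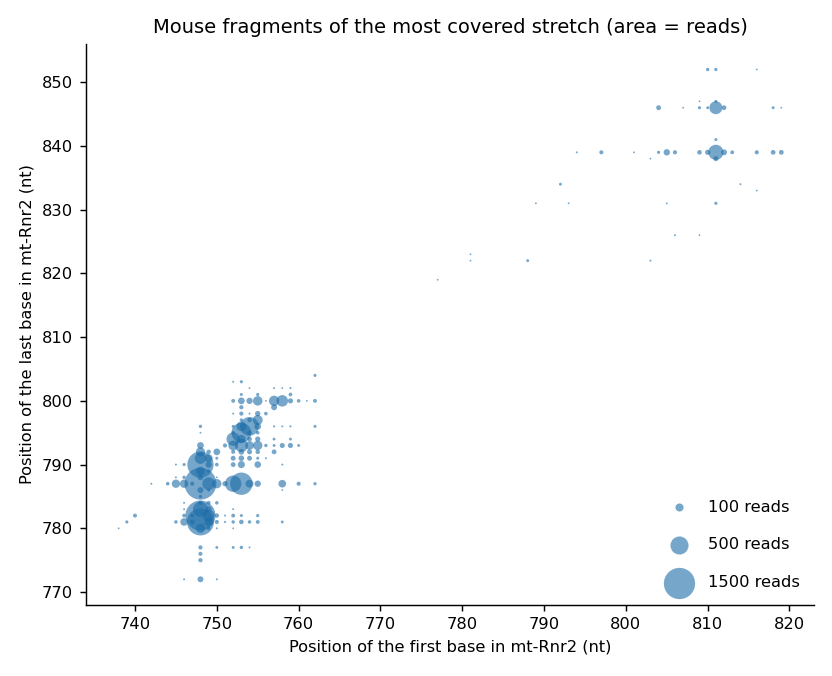
Each point is a mouse fragment in the most covered part of mt-Rnr2, by its first base (x axis, nt from the start of the gene) and last base (y axis, same scale), with an area in proportion to its reads. The largest points stand above first base 748, with last bases at 781, 782, 787 and 790 (1116, 1384, 1557 and 1056 reads), and a separate pair stands above base 811 at 839 and 846 (351 and 257 reads).

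The rat reads were most often from the 5′ end of mt-Rnr2. The 15 bases shown above began 4111 rat reads (39.2%, interval 38.3 to 40.1) in 112 sequences, and only 8 rat reads contained them after up to 6 further bases. Their most common lengths were 29 nt with 740 reads, 25 nt with 601, 21 nt with 545, 30 nt with 531 and 34 nt with 451. Of the 10 most abundant rat sequences, 6 had this start, with 718, 575, 544, 510, 433 and 218 reads. The corresponding mouse bases began 1801 mouse reads with the label (4.01%). The next rat starts were 457 reads beginning with the sequence shown next, whose most abundant form had 423 reads, and 3 neighbouring starts in the stretch at 1839-1939 with 393, 381 and 366 reads.
rat, 423 reads: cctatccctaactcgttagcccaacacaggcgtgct
This rat sequence resembled the mouse fragment from 1841 only loosely, with 10 edits over 36 nt against mouse 1844-1878. Of the 4733 rat reads placed over their whole length on the mouse mitochondrial genes, 963 (20.3%) ended at 1932. Then came 303 at 1929, 295 at 1935, 285 at 1939 and 219 at 1931. By the last 15 bases of all labelled rat reads, the end at 1932 led as well, with 963 (9.18%). The next there had 772, 659, 554 and 535 reads and were ends of the leading sequences with the mt-Rnr2 start, which were not placed. The ends at 1932 and 1939 were used in both species, with 758 and 388 mouse reads.

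Some fragments began and ended at the same place in both species. For 9 such pairs the first and last base were the same in both and the sequences differed by 1 base. The 9 overlap within 1902-1939 and are forms of 1 stretch, so all of them span the same differing site. Capitals mark it, A18C from mouse to rat.
mouse, chrM:1904-1932, 351 reads: aaggaactcggcaaacaAgaaccccgcct
rat, same place, 66 reads: aaggaactcggcaaacaCgaaccccgcct
The longer fragment from 1904 to 1939, with the same difference, had 257 mouse reads and 102 rat reads. From the first base 1 nt before, 1903, to 1932 the order was the other way round, with 42 mouse and 151 rat reads.

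Few sequences carried the label in both species. Identical sequences numbered 33, with 87 mouse reads (0.194%, interval 0.155 to 0.239) and 259 rat reads (2.47%, 2.18 to 2.78). Of these, 21 matched mt-Rnr1 exactly and 6 mt-Rnr2, so by sequence the exact matches were mainly of the small subunit. By rat reads this did not hold: mt-Rnr1 had 55 of the 259, mt-Rnr2 had 71, and the 6 sequences without an exact match had 133. The most read was the rat form of 36 nt from the stretch at 1839-1939, with 102 rat reads and 1 mouse read, and then a 34 nt piece of mt-Rnr2 at 2424-2457 with 40 rat reads and a blank mouse count. A 26 nt form had 24 rat reads and 1 mouse read, a 43 nt piece of mt-Rnr1 at 582-624 had 23 mouse and 2 rat reads, and a 39 nt piece of mt-Rnr2 at 2246-2284 had 4 and 19. The rat start of mt-Rnr2 was on 17 mouse reads, and the mouse start on 5 rat reads of any label; whether these reads passed between the libraries was not tested.

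The count of shared sequences depended on the labels. Looked for in the rat under any label, 788 mouse sequences were found, with 7666 mouse reads (17.1%, interval 16.7 to 17.4), and 550 of them, with 6582 reads, carried an mRNA label in the rat. The sequence with most reads in both was the following piece of mt-Rnr2, with 332 mouse reads and 880 rat reads, the latter under the mRNA label.
chrM:2351-2385: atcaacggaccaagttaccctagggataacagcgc
In the stretch at 2332-2385, which held 283 labelled rat reads, 24320 rat reads of any label were placed.

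Over all labels, rat reads placed on the mitochondrial genes with edits numbered 80067, of which 4733 (5.91%, interval 5.75 to 6.08) had the mitochondrial label and 73463 (91.8%) an mRNA label. In the mouse 41919 reads matched exactly, of which 83.2% (82.8 to 83.5) had the mitochondrial label, 4120 an rRNA label and 2472 a tRNA label. Counted by these matches in place of the label, the mitochondrial share was 6.06% in the mouse and 3.81% in the rat, so the distance between the libraries narrowed. All 4120 mouse reads with the rRNA label were in mt-Rnr2, and 3250 of them were 1 sequence of 43 nt from the first base of the gene (1094-1136). With it and others, 5103 mouse reads of any label began at 1094, where 1293 had the label.

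The strand column described the entry and not the mitochondrial genome. In the mouse, 3801 sequences with 7881 reads (17.5%, interval 17.2 to 17.9) matched the minus strand of their entry, against 320 sequences with 565 reads (5.39%) in the rat. Once turned, 7439 of these mouse reads were placed in mt-Rnr2 in the sense of the gene, the same sense as the plus rows, and 0 of 44926 mouse reads were placed antisense to a mitochondrial gene, which allows a share of up to 0.00668%. Matches without mismatch were rare among the mouse minus rows, 47 of 3801 sequences, and common among the plus rows, 5190 of 5675. In the rat, 3 reads were antisense to a mitochondrial gene, and 300 of the minus reads were in mt-Rnr1 in its sense. The mouse minus rows were thus mainly sense fragments of mt-Rnr2 that differed from their entry.

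In the mouse the mismatches lay mainly at the 3′ end. Over all mouse reads of the label, 5214 (11.6%, interval 11.3 to 11.9) differed from their entry at the last base, 4.13% at the base before it and 1.04% at the next, against 0.193% per base over bases 6 to 18 from the 3′ end and 0.252% at the first base. In the minus rows the last base differed in 61.5% of the reads and in the plus rows in 0.983%. In the rat 2.47% of the reads (2.18 to 2.78) differed at the last base and 0.915% at the base before it, against 0.158% inside the read. All these rat last-base reads were of sequences read fewer than 10 times. The rat first base differed more often, in 367 reads (3.50%), of which 329 were the mt-Th reads described above. Mouse reads of other labels had 9.10% at the last base, with 13.6% for tRNA, 3.85% for GenBank mRNA and 0.298% for GenBank rRNA entries. Under that rRNA label 98.2% of the reads had no mismatch at any base. The part that label assignment had in these differences was not tested.

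**Figure D4:**
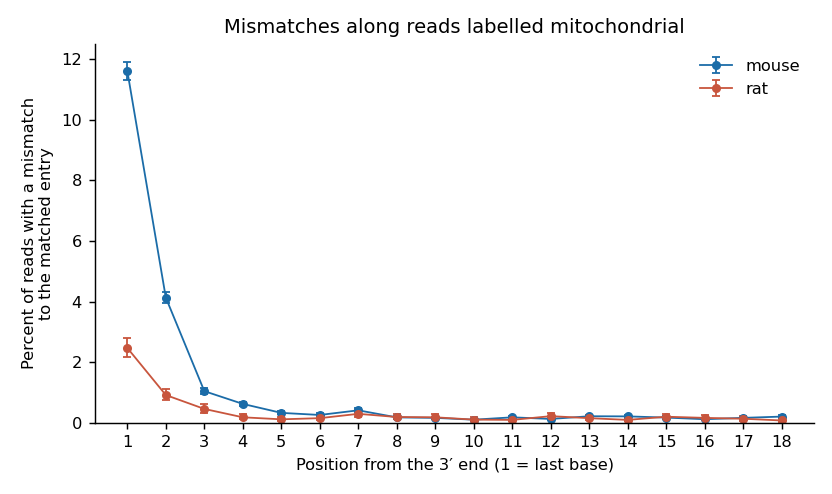
Share of reads with the label (percent, y axis) whose base differs from the matched entry, by position counted from the 3′ end (x axis, 1 is the last base), with exact 95% intervals as bars. The mouse share falls from 11.6% at the last base to 4.13% and 1.04% at the next 2, and the rat share starts at 2.47%.

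The differing last base was mostly A. Among the 5214 mouse reads it was A in 3572 (68.5%, interval 67.2 to 69.8), C in 1291 (24.8%), G in 316 (6.06%) and T in 35 (0.671%), and among the 259 rat reads A in 129 (49.8%), C in 96, G in 24 and T in 10. Measured against the genome in place of the entry, 5866 mouse reads in 2218 sequences matched exactly over at least 18 nt and then differed at a base among their last 4. They were 14.4% of the 40731 reads that matched exactly or in this way (14.1 to 14.7). The differing part runs from that base to the 3′ end. Bases after its first were counted whether or not they match the gene. The part had 1 base in 3670 reads (62.6%), 2 in 1583, 3 in 386 and 4 in 227. The most common were A with 2643 reads, AA with 800, C with 747, AC with 294 and G with 265, and parts made of A only were 63.7%. A base added to the fragment and a changed last base cannot be told apart in these reads. An added A also goes unseen where the gene has A next, which was so for 62.6% of the exact reads.

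The share of such reads differed widely between sites. At the last matching base 1888 they were 482 against 696 exact reads (40.9%), at 1883 339 against 1357 (20.0%), at 1875 200 against 1768 (10.2%) and at 1874 149 against 1529 (8.88%). At 1135 they were 235 against 19 (92.5%), where the exact sequence of 1 base more was common, with 3459 reads of any label ending at 1136. At 1879 they were 421 against 89 (82.5%), with 3739 exact reads ending 1 base later. At 2254, where the part AC made up 161 of 171 such reads, 1 exact read ended and 3 ended 1 base later, so here the differing form was nearly the only one. By contrast the most used end, 1880, had 6 such reads against 3739 (0.160%), 2385 had 1 against 2053 (0.0487%) and 1539 had 2 against 1268 (0.157%). The gene has A next at these 3 ends, where an added A goes unseen. It also has A next at 1874 and 1886, with shares of 8.88% and 19.6%. There an added A is unseen as well, and the part C led, with 112 of 149 and 171 of 218 such reads. At 2381, where G is next, the share was 1.61%. The part that the next base of the gene had in these shares was not tested. By gene the share was 14.7% in mt-Rnr2 (14.3 to 15.1) and 10.2% in mt-Rnr1 (9.13 to 11.3). By length it was 13.7% at 18 to 25 nt, 10.9% at 26 to 33 nt and 12.9% at 34 to 39 nt. It was 18.2% at 40 to 45 nt and 13.2% at 46 to 71 nt, with no steady rise.

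**Figure D5:**
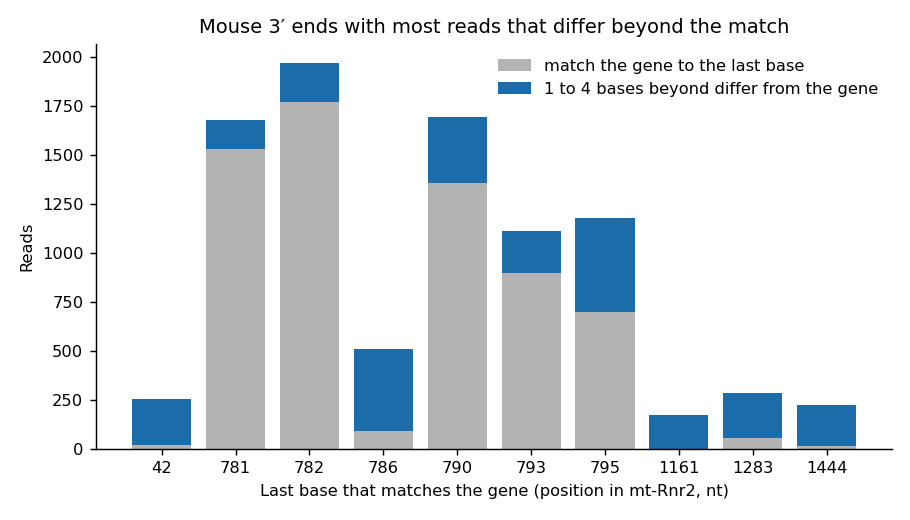
Reads (y axis) at the 10 last matching bases of mouse mt-Rnr2 with most reads that differ beyond the match (x axis, nt from the start of the gene), in grey those that match to their last base and in blue those with 1 to 4 further bases, of which the first differs. At base 795 (chromosome position in the text 1888) 482 differ beside 696 that match, and at base 42 there are 235 beside 19.

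The first base of the reads was also compared with the rest of the libraries. Mouse reads with the label began with A in 38.2%, C in 31.1%, T in 26.3% and G in 4.53% (interval 4.34 to 4.72), whereas 44.3% of the reads under other labels began with G. Rat reads with the label began with A in 70.3% (69.4 to 71.2), which includes the 4111 reads of the mt-Rnr2 start, against 18.5% under other rat labels. At the 3′ end A led in the mouse with 36.7%, against 4.01% under other labels. C led in the rat with 38.8%, as it did under other rat labels with 52.8%.

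Most mouse reads that could not be placed matched a nuclear transcript. Of the 2047 reads, 1604 (78.4%) matched a nuclear transcript exactly, and 1370 of these matched transcripts of Lars2, the nuclear gene of the mitochondrial leucyl-tRNA synthetase (GRCm38, chr9:123366927-123462666, plus strand). Of the Lars2 reads, 1369 shared at least 18 bases with sequences that the authors had assigned to GenBank rRNA entries. Some also matched transcripts of other genes, such as a 24 nt sequence of 68 reads that matched Gm15564 as well. Whether these reads came from Lars2 or from rRNA was not tested. A further 54 reads matched Rmrp, the RNA of the RNase MRP complex, and 17 matched Got2, a mitochondrial aminotransferase encoded in the nucleus. The label thus covered some entries named for mitochondria that are not of the mitochondrial genome. Conversely, 101 of the exactly placed reads (0.290%) also matched a nuclear transcript.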

How the data were processed

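Small RNA reads of 1 mouse and 1 rat library of cauda sperm were analysed. The authors deposited, per the file headers, the read count of each distinct sequence with the strand and name of its matched entry and up to 2 mismatches. Bowtie 0.12.7 is named in the submitters' processing notes, as are the builds mm9 and rn5. Their roles, the trimming and the order of databases were not given in the sources used here. Some sequence identifiers are not listed in these tables, so shares are of listed reads.

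Rows whose entry ends in the mitochondrial label were taken. The members and lists were chosen with earlier results of these data known. Sequences of minus rows were reverse-complemented, after which the mismatched bases matched the printed ones in all 30378 mouse and 67457 rat rows with a mismatch. Without turning they matched in 2734 of 13250 mouse minus rows. Reads were placed on 37 mitochondrial genes of GENCODE M21 (GRCm38) joined into 15422 nt. The control region was not used here. Mouse placement was exact, or with edits of up to 15% of the length (edlib 1.3.9.post1), and rat placement was with edits, since no rat genome was used. The placement was tested on simulated reads. A differing 3′ part needed 18 exact bases before it and was of at most 4 nt. Only its first base had to differ from the gene. Intervals are exact at 95% (scipy 1.17.1, python 3.11.15), for counting error only, since PCR copies are not independent molecules. A count of 0 was given a limit of 3 counts. No p-value was computed.

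Named were both rRNA genes, the 5 tRNA and 3 protein-coding genes with most mouse reads (the rat ones beside them), and by count the 10 leading sequences and 5 leading first bases, last bases, minus-strand and shared sequences per library. Alternatives covered the weight of sequences, mismatches, low counts, blank counts, leading sequences, labels, edits, merged ends and the definition of sharing.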

Additional observations from a re-analysis of the deposited data

Results flagged for a closer look

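Signal outside the label was found in both libraries. In the mouse, 7054 reads under other labels matched a mitochondrial gene exactly, 4156 of them in mt-Rnr2. In the rat, 75334 reads under other labels were placed on the mouse mitochondrial genes with edits, 35199 of them in mt-Tq and 33141 in mt-Rnr2. In the mouse, 321 sequences of the label had a blank count. If the month shown in their date-like cell is the count, they would add 2906 reads.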

How the results depend on the processing

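Values are percentages, mouse before rat. The 10 leading first bases are positions of exactly placed reads in the mouse, which held 48.3 before any alternative. In the rat they are the first 15 bases of all labelled reads, which held 66.1. The mouse and rat values of this measure are therefore not like for like. A value counted as moved when it left the counting interval of the one reported, which is narrow at this depth, and 68 of 82 values moved. Counting each distinct sequence 1 time gave mitochondrial shares of 10.6 and 1.23, 26.6 and 4.73 at 40 to 45 nt, 40.1 and 18.9 on the minus strand, 74.3 and 50.7 in mt-Rnr2, 6.88 and 16.2 in the 10 leading first bases, 0.348 and 1.95 shared, and 20.3 and 11.05 with a differing last base. Sequences of at least 10 reads gave 5.47 and 0.421 as mitochondrial shares, 34.9 at 40 to 45 nt in the mouse, 8.68 and 2.32 minus, 96.7 and 82.7 in mt-Rnr2, 59.6 and 82.5 in leading first bases, 0 and 0 shared, and 7.81 and 0 with a differing last base. Rows with no mismatch gave shares of 9.96 and 0.595, 30.5 and 4.83 at 40 to 45 nt, 0.178 and 2.22 minus, and in the rat 85.4 in mt-Rnr2, 70.4 in leading first bases and 1.32 shared. Restored counts gave 6.70 as the mouse share, 91.6 in mt-Rnr2 and 46.3 in leading first bases. Without the 10 most abundant sequences the shares were 5.30 and 0.313, with 29.7 and 8.76 at 40 to 45 nt, 21.8 minus and 89.5 in mt-Rnr2 in the mouse, 0.240 and 3.95 shared, and 14.4 and 3.95 with a differing last base. By matches of any label, exact in the mouse and with edits in the rat, the shares were 6.06 and 3.81. Of these matches, 35.0 and 2.16 were at 40 to 45 nt, 86.5 and 45.8 in mt-Rnr2, and 49.2 in leading mouse first bases. The share in mt-Rnr2 was 92.5 with up to 2 edits in the mouse, 76.5 with edits of up to 10% in the rat, and 92.5 and 93.1 by the first 15 bases. Merging first bases within 2 nt gave 66.5 and 77.5. Sharing by the first 18 bases gave 7.95 and 53.6, and mouse sequences found under any rat label made up 17.1. The differing last base was at 11.1 in the mouse without reads of 43 nt, and at 12.0 and 4.56 among reads of the rRNA genes. The differing last base with its alternatives, the first 15 bases and the nuclear transcripts were chosen after seeing the data. The mouse exceeded the rat in mitochondrial share, length, minus share and mt-Rnr2 share under the alternatives run for both, except minus share among rows with no mismatch and mt-Rnr2 share by the first 15 bases. The planned removal of sequences matching the nuclear genome was not run, as no genome was used, and nuclear transcripts took its place. No paired analysis was possible because each species had 1 library and the labels carry no replicate numbers.

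Species, strain and library cannot be told apart here, since each species had 1 library. Rat values rest on mouse genes, so rat fragments that diverge are not placed, and the tRNA and control region parts of the rat were seen only in part. Sequences that match more than 1 entry carry 1 label, which limits every share by label. A sequence of few reads cannot be told from a sequencing error, and 6096 of 9476 mouse sequences were read 1 time.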
